A study of Mus musculus with 9 samples.

Results

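Protein S-palmitoylation is the attachment of palmitate, a saturated fatty acid, to cysteines of proteins through a thioester bond, and it governs how proteins such as Ras, G protein subunits and growth factor receptors sit in membranes. It is written by membrane enzymes of the ZDHHC family, named after a conserved Asp-His-His-Cys run whose cysteine takes up the acyl group from palmitoyl-CoA and passes it on. It is erased by protein thioesterases of the LYPLA, PPT and ABHD groups, so that many targets cycle between both states. The RNA levels of 38 genes of this system were examined: 24 ZDHHC enzymes, 3 accessory proteins (Golga7, Golga7b and Selenok), 2 membrane-bound O-acyltransferases that acylate secreted proteins (Porcn for Wnt, Hhat for Hedgehog) and 9 thioesterases or their close relatives. The members were given by symbol, and all 38 were found among the 54838 Ensembl identifiers of the count table.

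The libraries came from PDA530 Met, a mouse pancreatic ductal adenocarcinoma line from a liver metastasis in a male KPC mouse of mixed 129/SvJae/C57Bl/6 background. There were 3 groups of 3 untreated biological replicates each. The knockout is clone E4, a single-cell clone in which Zdhhc20 was edited with CRISPR/Cas9. The control group is clone C5, a single-cell clone taken through nucleofection with those guide RNAs as well, in which editing failed and Zdhhc20 remains expressed. The parental group is the uncloned line, which the design text writes as PDA50 Met. Since each clone is a single isolate, differences between clones and an effect of the edit cannot be told apart. In the main test, p-values measure the spread between cultures within a group, estimated over all 3 groups together. Each comparison thus also carries the spread of the group left out of it.

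Gene-level estimated counts summed to between 16525869 and 23192701 per library, and 3 counts, the limit below which a gene is treated here as at the floor, corresponded to 0.131 to 0.178 CPM, the depth-scaled unit used for levels here. Of 8 ductal epithelial markers, 7 had a mean above 1 CPM in each group. Their summed level, carried mostly by Krt8, Krt18, Krt19 and Cdh1, was 4410 to 4546 CPM in the knockout libraries, 7285 to 9749 in the control libraries and 6822 to 8301 in the parental libraries, so every knockout library lay below every other. Not all markers went that way, since Krt7 (0.09 on the log2 scale, adjusted p 0.578) and Sox9 (0.12, adjusted p 0.776) were not called against the parental line. Epcam, at or below 0.635 CPM in every library, had 13, 11 and 10 counts in the knockout, 4, 2 and 3 in the control and 5, 2 and 4 in the parental libraries. It was called higher in the knockout against both (1.96 and 1.58, adjusted p 0.00393 and 0.0139), a description only, since it was the knockout libraries that reached the minimum count of 10. The role of this difference in the results that follow was not tested. Summed markers of fibroblasts, leukocytes, endothelium, hepatocytes and acinar cells reached at most 7.66 CPM in any library. At such low levels, the 1 tested marker each of fibroblasts, leukocytes, hepatocytes and acinar cells was called lower against the control (-1.24, -1.10, -4.97 and -2.19). Against the parental line, those of fibroblasts and hepatocytes were called lower too (-2.04 and -7.65), and those of leukocytes and acinar cells were not called. In bulk RNA, fewer cells of a type and less RNA per cell cannot be told apart. The control libraries were the most variable. Over the 29 members with a mean of at least 5 CPM over all 9 libraries, the SD of the log2 level within a group had a median of 0.07 (knockout), 0.14 (control) and 0.09 (parental).

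The coding sequence of the catalytic run is shown for the 6 ZDHHC enzymes whose knockout level was called apart from control and parental line alike. Taken from GENCODE M21 transcripts on GRCm38, the lines show 36 bases of coding sequence, with the 4 codons of Asp-His-His-Cys in capitals.
Zdhhc20: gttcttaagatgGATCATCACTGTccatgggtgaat
Zdhhc15: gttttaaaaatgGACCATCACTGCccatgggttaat
Zdhhc2: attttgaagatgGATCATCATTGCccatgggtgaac
Zdhhc23: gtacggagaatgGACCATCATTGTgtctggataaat
Zdhhc3: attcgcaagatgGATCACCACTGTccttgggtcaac
Zdhhc6: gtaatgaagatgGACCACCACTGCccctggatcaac
The first codon of the run is codon 153 in Zdhhc20, 156 in Zdhhc15, 153 in Zdhhc2 and 276 in Zdhhc23. The Zdhhc20 line lies at chr14:57856724-57857656 on the minus strand and is split between exons 6 and 7, and that of Zdhhc15 at chrX:104571768-104572533 (minus strand) is split between exons 6 and 7 as well. The line of Zdhhc2 spans chr8:40456667-40462094 (plus strand, exons 6 and 7) and that of Zdhhc23 spans chr16:43971560-43973496 (minus strand, exons 2 and 3). The lines of Zdhhc3 at chr9:123084259-123084294 and Zdhhc6 at chr19:55311745-55311780, both on the minus strand, lie within exon 4. Over the 36 bases Zdhhc20 matched Zdhhc15 at 30 positions, Zdhhc2 at 30 and Zdhhc23 at 24, and Zdhhc15 matched Zdhhc2 at 29. Such likeness is not particular to these enzymes, since Zdhhc20 also matched Zdhhc7 and Zdhhc16 at 29 positions and Zdhhc5, called in no comparison, matched Zdhhc8 at 33. An in-frame run of these 4 codons was found once in 23 of the 24 ZDHHC members, in 11 different spellings, and not in Zdhhc13, whose protein is known for a DQHC variant. No stretch of 50 bases was shared between the transcripts of any 2 members, and Zdhhc15, Zdhhc23, Porcn, Lyplal1, Lypla2 and Abhd17c shared none with any other annotated gene.

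Of the 38 members, 31 passed the filter on low counts. Zdhhc11, Zdhhc22 and Zdhhc25 had 0 counts in all 9 libraries, which allows at most 0.131 to 0.178 CPM per library. Zdhhc14 had 3 counts over all libraries, Zdhhc19 had 5, Hhat had 12 and Golga7b, the partner of Zdhhc5, had 13, so the Hedgehog acyltransferase was nearly silent in these cells. Compared per length, as CPM per kilobase of annotated exon, the level of Zdhhc5, an enzyme of the plasma membrane and endosomes, was the highest of all members in each group, at 42.1 ± 1.6 (SD, n = 3) in the knockout, 44.9 ± 8.6 in the control and 40.1 ± 1.0 in the parental libraries. Zdhhc2 and Zdhhc16 followed among the ZDHHC enzymes, with Zdhhc2 ahead in the control (21.9 ± 2.0 against 17.6 ± 1.8) and parental libraries (25.4 ± 1.2 against 19.4 ± 1.1) and Zdhhc16 ahead in the knockout (21.9 ± 0.73 against 16.6 ± 0.16). Zdhhc20 stood at place 4 of the ZDHHC enzymes in the control (15.2 ± 2.9), where its level and that of the next enzyme, Zdhhc6 (14.9 ± 1.0), lay within their spread. It held place 6 in the parental line (11.4 ± 1.1) and place 11 in the knockout (5.26 ± 0.60), next to Zdhhc4 (5.29 ± 0.45) and within the spread of it. Levels per kilobase of a gene depend on the length used. With the longest annotated transcript instead of all exons, Zdhhc5 stayed at the top in each group and Zdhhc6 moved to place 3 in each (35.6 CPM per kb in the control, 36.4 in the parental line and 29.6 in the knockout), while Zdhhc20 stood at place 6 in the control (21.1), below Zdhhc6, and kept places 6 and 11 in the parental line and the knockout. Among thioesterases, Abhd17a and Abhd17b had the highest levels per kilobase of exon in each group, between 16.3 and 19.4 CPM per kb, and Lypla1, Lypla2, Ppt1, Ppt2 and Abhd17c lay between 8.33 and 16.8. With the longest transcript Lypla1 was first in the knockout and parental libraries and Abhd17c in the control.

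**Figure D1:**
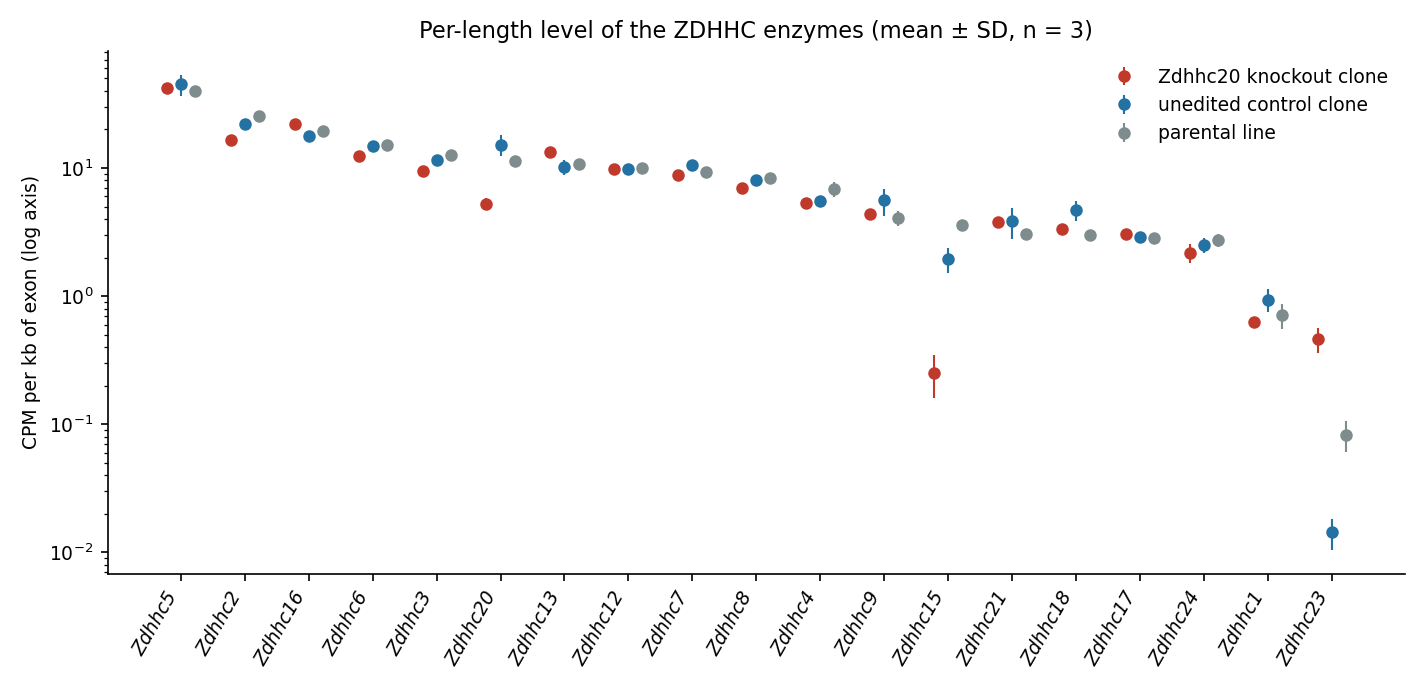
Per-length levels of the ZDHHC enzymes in the 3 groups, in CPM per kilobase of annotated exon on a log axis, as the mean of 3 libraries with the SD. Zdhhc5 is highest in each group, while Zdhhc20, Zdhhc15 and Zdhhc23 shift between the groups.

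Against the control clone, 16 of the 31 tested members were called at an adjusted p under 0.05, 4 higher and 12 lower in the knockout. Over all 13153 tested genes, 18.7% passed in the upward and 24.2% in the downward direction. The median log2 fold change of the tested members was -0.21, beside -0.02 for all tested genes. Against the parental line, 13 members were called, 2 higher and 11 lower, where 13.1% of all tested genes were higher and 18.3% lower, with a median of -0.12 for the members and -0.01 for all genes. The control clone differed from the parental line in 6 members, 3 in each direction, where 10.4% of tested genes were higher and 11.0% lower. Changes of 1 log2 unit or more were found for 5, 3 and 1 of the called members in the 3 comparisons. Of the 13153 tested genes, 1843, 1392 and 851 were called at that size. Zdhhc23 is in each of the member counts and is the only member in the last. It passed the low-count filter only through the knockout libraries. By class, the ZDHHC enzymes gave 3 higher and 7 lower of 19 against the control and 1 higher and 7 lower against the parental line. Zdhhc23 is among the higher ones in both, and is the only higher one against the parental line. It is also in the counts of all members above, with the same limit of the filter. The thioesterases gave 1 higher and 4 lower of 9, then 1 higher and 3 lower, while Golga7 and Selenok were called in neither. Leaving out knockout replicate 1 reduced the 13 calls against the parental line to 7, and leaving out parental replicate 3 reduced them to 8. The 6 calls between control and parental line became 3 without parental replicate 1 or 2. The number of genes called over all tested genes shifted as well when a library was left out, with ranges given in the last section.

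**Figure D2:**
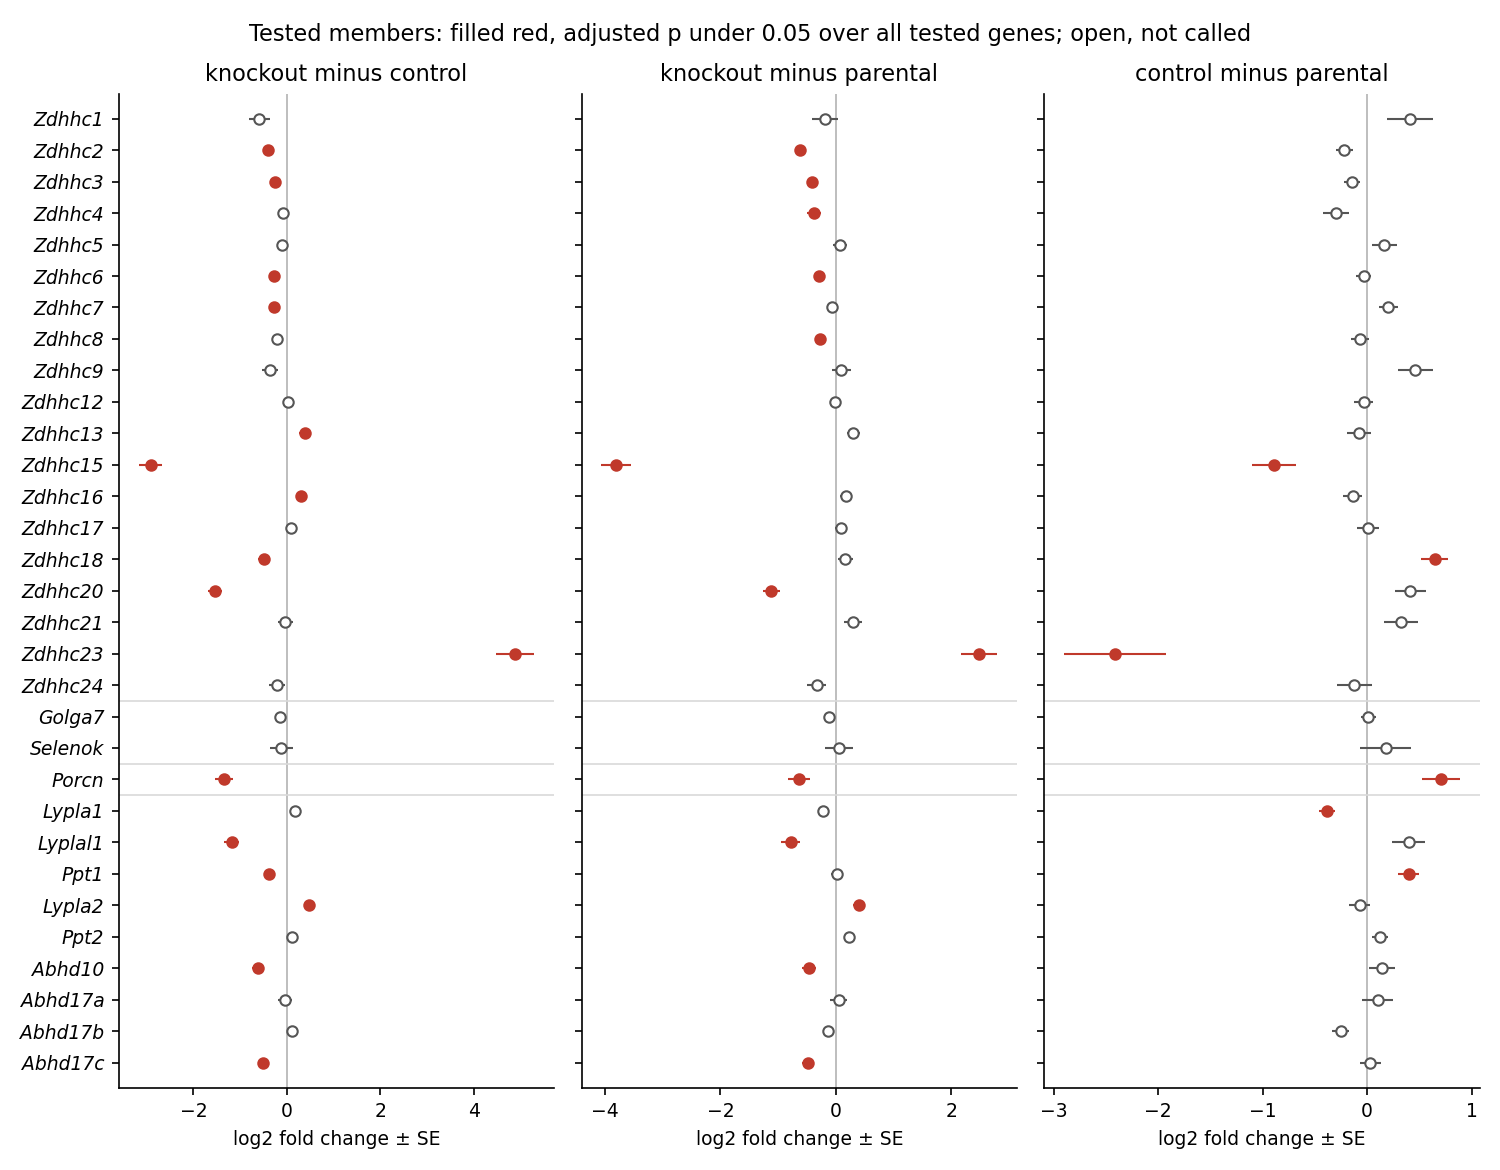
Log2 fold changes of the 31 tested members in the 3 comparisons, with bars of 1 SE and called values set apart from those not called. Zdhhc23 lies far to the right and Zdhhc15 far to the left in both knockout comparisons, while most other members lie within 1 log2 unit of 0.

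The knockout was set apart from the control and the parental line alike, with both calls in 1 direction, for 11 members, 2 higher and 9 lower. The same held for 8.19% (higher) and 13.4% (lower) of all tested genes. Both comparisons use the same knockout libraries, so their directions are not independent of each other. Of these, Zdhhc23 passed the low-count filter only through the knockout libraries, so its count here is not independent of that filter. The lower members were Zdhhc20, Zdhhc15, Zdhhc2, Zdhhc3, Zdhhc6, Porcn, Lyplal1, Abhd17c and Abhd10, and the higher ones were Zdhhc23 and Lypla2. Without knockout replicate 1 the count was 6, and without knockout replicate 2 or parental replicate 3 it was 7. The calls of Zdhhc20, Zdhhc15, Zdhhc2, Lyplal1 and Abhd17c against both groups held in each of the 9 fits that left out a library.

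Zdhhc20 (ENSMUSG00000021969, chr14:57832703-57890276), the edited gene, encodes a plasma membrane palmitoyltransferase whose known substrates include the EGF receptor. Its level was 37.5, 33.9 and 42.5 CPM in knockout replicates 1 to 3, 123, 85.8 and 120.2 CPM in the control and 75.3, 81.2 and 90.7 CPM in the parental libraries. All 3 knockout libraries lay below all 6 others, yet none was near 0, so Zdhhc20 transcripts were still counted in the edited clone. Gene counts do not show whether these transcripts encode an intact enzyme. The difference was -1.53 on the log2 scale against the control (SE 0.15, adjusted p 6.97e-05) and -1.12 against the parental line (SE 0.15, adjusted p 0.000585). Control and parental libraries overlapped, and their difference of 0.41 (SE 0.15) was not called (adjusted p 0.0714), though it passed without control replicate 2 (0.56, adjusted p 0.00419), with all genes kept (0.0425) and under a replicate block (0.0475).

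Zdhhc15 (ENSMUSG00000033906, chrX:104536969-104671064), a close relative of Zdhhc20 and Zdhhc2 known for palmitoylating the synaptic scaffold PSD-95, was lower in the knockout. Its level was 1.76, 1.61 and 0.818 CPM there, 12.2, 7.97 and 11.9 CPM in the control and 19.8, 19.98 and 19.7 CPM in the parental libraries. The 3 groups did not overlap, and the parental libraries were the highest. The difference was -2.92 against the control (SE 0.26, adjusted p 3.88e-05) and -3.81 against the parental line (SE 0.26, adjusted p 1.81e-05), the largest decrease among the members in both comparisons. The control clone was lower than the parental line by -0.89 (SE 0.21, adjusted p 0.0162), a call lost without parental replicate 1 (adjusted p 0.0594) or 2 (adjusted p 0.0571). In the main fit Zdhhc15 was the only member whose parental level was called higher than both clones. Over all tested genes 3.70% were so and 2.14% were lower than both. Lypla1, which missed the threshold against the knockout in the main fit (adjusted p 0.05005), was called so in 5 of 8 other settings.

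Zdhhc23 (ENSMUSG00000036304, chr16:43965033-43979791), known as a binding partner of neuronal nitric oxide synthase, went the other way at a low level. It gave 2.73, 3.28 and 2.10 CPM in the knockout, 0.0873, 0.0595 and 0.105 CPM in the control and 0.337, 0.589 and 0.530 CPM in the parental libraries. In counts that was 151 over the knockout libraries, 5 over the control libraries and 26 over the parental libraries. No 2 groups overlapped, and each control library held fewer than 3 counts. The ratio of knockout to control was 31.9, with a 95% counting interval from 13.4 to 99.8, and that of knockout to parental was 5.72 (3.75 to 9.04), both covering counting error only. Zdhhc23 was tested only because the knockout libraries carried it past the low-count filter, so a difference from them was a condition of its being tested, and the fitted values are a description beside the counts. The fitted difference was 4.89 against the control (SE 0.41, adjusted p 2.92e-05) and 2.48 against the parental line (SE 0.32, adjusted p 0.000468). Even so, the knockout level was 0.46 ± 0.10 CPM per kb, far below most ZDHHC enzymes. Between the control clone and the parental line the same fit gave -2.41 (SE 0.49, adjusted p 0.00717), on 5 against 26 counts, and in a fit of those groups alone the gene did not pass the filter.

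**Figure D3:**
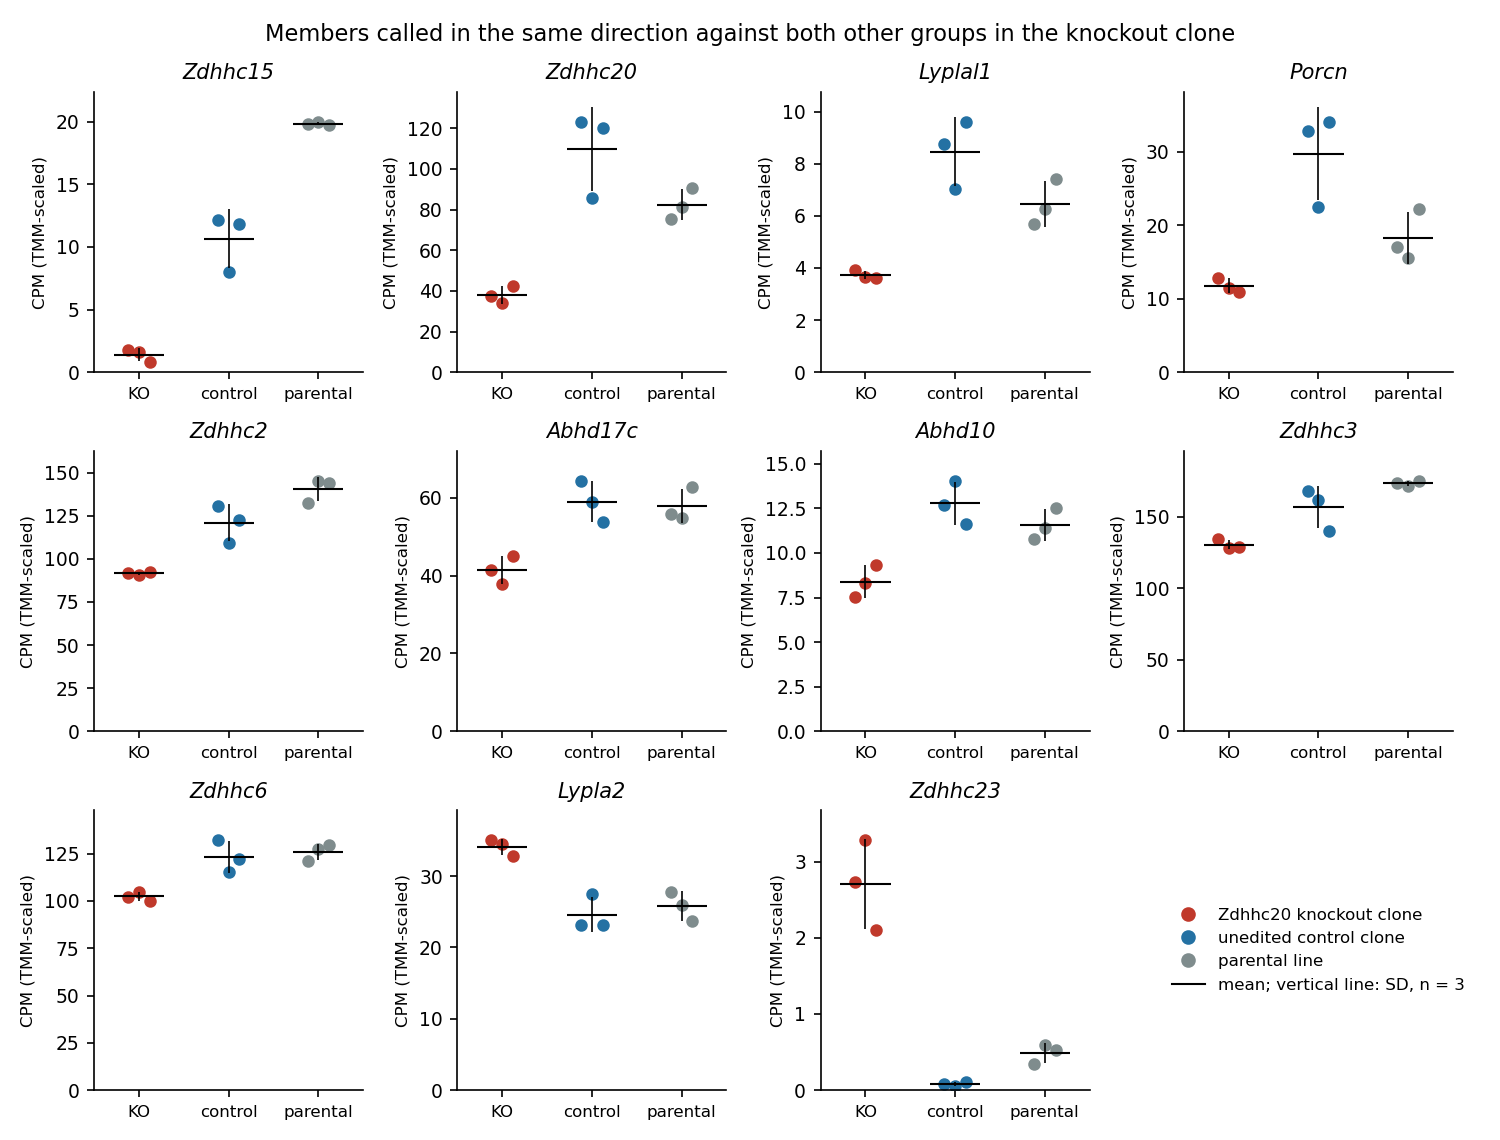
Level in CPM of the 11 members that set the knockout apart from both other groups, each point a library, with the mean and SD of each group. Knockout points of Zdhhc20 and Zdhhc15 lie below all others, and those of Zdhhc23 lie above them.

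The promoters of Zdhhc15 and Zdhhc23 are shown because these enzymes moved furthest and in opposite directions. The RefSeq windows on GRCm38.p6 run from 250 bases before to 50 after the annotated start, with each CG dinucleotide in capitals.
Zdhhc15: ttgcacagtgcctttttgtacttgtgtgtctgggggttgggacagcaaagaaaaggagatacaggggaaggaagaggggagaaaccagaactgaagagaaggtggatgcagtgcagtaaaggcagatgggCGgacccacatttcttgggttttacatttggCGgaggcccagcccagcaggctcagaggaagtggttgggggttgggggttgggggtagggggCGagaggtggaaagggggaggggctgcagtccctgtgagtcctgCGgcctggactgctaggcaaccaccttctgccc
Zdhhc23: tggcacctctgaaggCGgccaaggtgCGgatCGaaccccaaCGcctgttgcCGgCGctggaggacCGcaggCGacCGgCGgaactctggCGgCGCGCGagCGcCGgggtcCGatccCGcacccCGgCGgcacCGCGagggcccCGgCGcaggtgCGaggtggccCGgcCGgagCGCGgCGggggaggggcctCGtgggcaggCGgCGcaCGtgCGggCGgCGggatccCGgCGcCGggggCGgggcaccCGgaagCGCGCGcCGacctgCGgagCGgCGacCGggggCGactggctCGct
The window of Zdhhc15 is chrX:104671015-104671314 and that of Zdhhc23 is chr16:43979760-43980059, both on the minus strand. Zdhhc15 had 4 CG dinucleotides in its window, and 68.6% of the 32851 promoter windows of this length had at least as many. Zdhhc23 had 52, reached by 0.575% of windows, and the median over all windows was 7. Zdhhc5, called in no comparison, and Abhd17c, called lower in the knockout, also had 52. The median of the tested members with a window was 25. The CG dinucleotide reads the same on both strands, and 94.6% of all windows hold at least 1. Of the 25 tested members with a window, and taking the window with the most CG where a gene had several, Zdhhc15 had the fewest CG and the next was Ppt1 with 13, while Zdhhc20 had 32. Counting every window, Ppt2 had 1 with 11 CG. TATAAA, searched on both strands, was in neither printed window and in 13.6% of all windows. These are descriptions of sequence, and methylation or binding was not measured.

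Smaller differences were found for Golgi, endoplasmic reticulum and plasma membrane enzymes. Zdhhc2, a palmitoyltransferase of PSD-95 and of the membrane protein CKAP4, was at 91.7, 90.8 and 92.6 CPM in the knockout, 131, 109 and 123 CPM in the control and 133, 145 and 144 CPM in the parental libraries. The knockout was lower by -0.40 (SE 0.08, adjusted p 0.00363) and -0.62 (SE 0.08, adjusted p 0.000563) against the control and parental libraries. Zdhhc3, a Golgi enzyme of broad substrate range, was at 134, 128 and 129 CPM in the knockout, 168, 162 and 140.2 CPM in the control and 174, 171 and 175 CPM in the parental libraries. Its difference was -0.26 (SE 0.08, adjusted p 0.0232) against the control and -0.41 (SE 0.08, adjusted p 0.00415) against the parental line. The call against the control was lost in 5 of 9 fits without a library, namely knockout replicate 1, 2 or 3 (adjusted p 0.0631, 0.0902, 0.0808), control replicate 1 (0.0823) and parental replicate 2 (0.0505), as well as with no filter (0.0812) and in a fit of the compared groups only (0.0924). Zdhhc6, an endoplasmic reticulum enzyme that acts with Selenok, was at 102, 105 and 100.1 CPM in the knockout, 132, 115 and 122 CPM in the control and 121, 127 and 129 CPM in the parental libraries. It was lower by -0.27 (SE 0.07, adjusted p 0.0149) and -0.30 (SE 0.07, adjusted p 0.0126). Against the control that call was lost without knockout replicate 1, 2 or 3 or control replicate 1 (adjusted p 0.0501 to 0.0689), with no filter (0.0692) and in a fit of the compared groups only (0.0673), and against the parental line without knockout replicate 1 or 3 or parental replicate 2 or 3 (0.0561 to 0.062). Exons of Zdhhc6 overlap those of Acsl5, on the opposite strand, over 404 bases. Acsl5, a far more abundant gene with 106744 counts in all, was itself lower in the knockout, by -0.75 (adjusted p 0.000364) and -0.78 (adjusted p 0.00047). The strand setting of the counting is not given in the sources used here, so reads of both genes in that stretch cannot be told apart. The same limit holds for Zdhhc2, whose exons overlap those of Cnot7 (26851 counts in all), on the opposite strand, over 247 bases. All 3 enzymes, taken up here because they were called lower in both comparisons, kept every knockout library below every other library. The share of all tested genes that did so was not counted.

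The ZDHHC enzymes Zdhhc4, Zdhhc7, Zdhhc8, Zdhhc13, Zdhhc16 and Zdhhc18 were called in only 1 knockout comparison, and whether the comparisons differ was not tested. Against the control alone, Zdhhc7, a Golgi enzyme related to Zdhhc3, was lower by -0.27 (adjusted p 0.0415), while Zdhhc13 and Zdhhc16 were higher by 0.38 (adjusted p 0.0218) and 0.31 (adjusted p 0.0195). Zdhhc13 is an ankyrin-repeat enzyme, and Zdhhc16 is known to palmitoylate Zdhhc6. Against the parental line alone, Zdhhc4 was lower by -0.37 (adjusted p 0.0456) and Zdhhc8, the closest relative of Zdhhc5, by -0.27 (adjusted p 0.0399). The Zdhhc7 call was lost when any library but control replicate 3 was left out (adjusted p 0.0657 to 0.18). That of Zdhhc4 was lost without any knockout library, control replicate 1 or parental replicate 2 or 3 (0.0585 to 0.178), and that of Zdhhc8 without any knockout library or parental replicate 1 or 2 (0.103 to 0.145). With no filter these calls were lost too (0.135 for Zdhhc7, 0.0963 for Zdhhc4 and 0.135 for Zdhhc8), as they were under a replicate block (0.0587, 0.0773 and 0.0659). Zdhhc7 also lost its call under total counts (0.0697) and in a fit of the compared groups only (0.123), and Zdhhc4 under limma voom (0.0514). Zdhhc13 lost its call without knockout replicate 2 (adjusted p 0.0669) and Zdhhc16 without knockout replicate 3 (0.0688). In a fit of only the compared groups, both were called against the parental line as well (0.0079 and 0.0294). For Zdhhc16, 21.1% of the 50-base stretches of its transcripts were shared with Mms19 on the opposite strand. Zdhhc18, a Golgi enzyme of Ras, was set apart in the control clone instead. The knockout libraries held 17.7, 17.3 and 18.9 CPM, with 21.7, 30.2 and 23.5 CPM in the control and 16.8, 16.3 and 15.1 CPM in the parental libraries. The control was the highest group without overlap, 0.65 above the parental line (SE 0.13, adjusted p 0.00792), and the knockout was below it by -0.48 (SE 0.13, adjusted p 0.014), which no longer passed once knockout replicate 2 was left out (0.0502). The remaining tested enzymes Zdhhc1, Zdhhc5, Zdhhc9, Zdhhc12, Zdhhc17, Zdhhc21 and Zdhhc24 were called in no comparison. Among them Zdhhc9, which works with Golga7 on Ras, was at 29.0 CPM in control replicate 2 and at 36.8 and 46.7 CPM in the other control libraries. Without that library its difference of -0.36 from the control (adjusted p 0.108) became -0.51 (adjusted p 0.0103), and that of the control from the parental line became 0.61 (0.00966).

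The sum of the per-length levels of all ZDHHC enzymes was 169.2 to 170.4 CPM per kb in the knockout libraries, 183 to 198 in the control and 186 to 191 in the parental libraries. With Zdhhc20 left out, it was 165 ± 0.45 (SD, n = 3) in the knockout, 177 ± 10 in the control and 178 ± 2.0 in the parental libraries. The knockout libraries lay below all others with Zdhhc20 included or left out. No test was run on these sums. Zdhhc20 made up 3.10 ± 0.35% of the pool in the knockout, 7.93 ± 1.68% in the control and 6.02 ± 0.50% in the parental libraries. For thioesterases the sum was 100.1 ± 2.24, 103 ± 4.92 and 104 ± 0.76 CPM per kb in the same order, and the ranges of knockout and control libraries overlapped, while the knockout range (98.5 to 102.7) lay below the parental range (103.2 to 104.6).

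**Figure D4:**
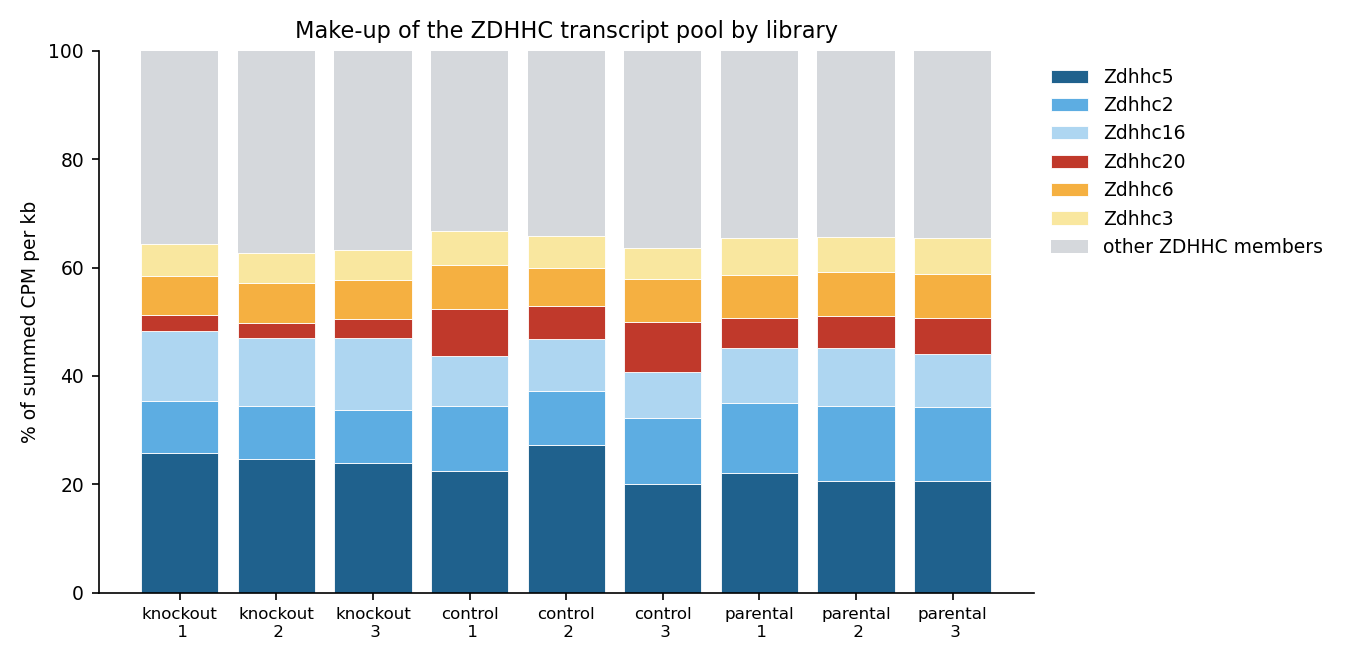
Make-up of the summed per-length level of ZDHHC enzymes in each of the 9 libraries, as % of the sum, with the 6 named enzymes and all others in grey. The Zdhhc20 band is narrowest in the knockout libraries (3.10% on average), and Zdhhc5 is the largest single band in every library.

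Porcn (ENSMUSG00000031169, chrX:8193848-8206525), which acylates Wnt proteins so that they can be secreted and signal, was called in all 3 comparisons. Its level in the knockout libraries was 12.8, 11.5 and 10.9 CPM, with 32.7, 22.4 and 34.0 CPM in the control and 17.1, 15.5 and 22.2 CPM in the parental libraries. The groups did not overlap, with the parental line between the clones. The knockout was lower than the control by -1.34 (SE 0.19, adjusted p 0.000462) and than the parental line by -0.64 (SE 0.19, adjusted p 0.0282), and the control was above the parental line by 0.71 (SE 0.18, adjusted p 0.0231). The call against the parental line was lost without knockout replicate 1, 2 or 3 (adjusted p 0.0598, 0.0879, 0.096) or parental replicate 1 or 3 (0.0556, 0.123), and that of the control without control replicate 1 (0.0721) or parental replicate 1 or 2 (0.0987, 0.103) and in a fit of those groups only (0.065).

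Among the thioesterases, Lyplal1 (ENSMUSG00000039246, chr1:186087731-186117310), a hydrolase related to the LYPLA depalmitoylases, had the largest difference. The knockout libraries gave 3.91, 3.67 and 3.62 CPM, with 8.77, 7.02 and 9.61 CPM in the control and 5.68, 6.25 and 7.41 CPM in the parental libraries. The knockout libraries lay below all others, by -1.18 against the control (SE 0.17, adjusted p 0.000507) and -0.78 against the parental line (SE 0.17, adjusted p 0.00686). Abhd17c, of a family that depalmitoylates N-Ras and PSD-95, was at 41.4, 37.9 and 45.0 CPM in the knockout, 64.3, 58.9 and 53.8 CPM in the control and 55.9, 54.7 and 62.8 CPM in the parental libraries. It was lower without overlap, by -0.51 (SE 0.10, adjusted p 0.00296) and -0.48 (SE 0.10, adjusted p 0.006), while its relatives Abhd17a and Abhd17b were called in no comparison. Abhd10, a mitochondrial depalmitoylase, was at 7.52, 8.29 and 9.34 CPM in the knockout, 12.7, 14.0 and 11.6 CPM in the control and 10.8, 11.4 and 12.5 CPM in the parental libraries. It was lower by -0.61 (SE 0.13, adjusted p 0.00433) and -0.46 (SE 0.13, adjusted p 0.0223), the latter call being lost without knockout replicate 1 or 2 (adjusted p 0.0899, 0.0645) or parental replicate 2 or 3 (0.0571, 0.0872) and with no filter (0.0556).

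Lypla2, also known as acyl-protein thioesterase APT2, was the only thioesterase called higher in the knockout. Its knockout level was 35.1, 34.4 and 32.9 CPM, with 23.2, 27.5 and 23.1 CPM in the control and 27.8, 26.0 and 23.7 CPM in the parental libraries. The knockout libraries lay above all others, by 0.47 (SE 0.10, adjusted p 0.00445) against the control and 0.40 (SE 0.10, adjusted p 0.0142) against the parental line. The second call was lost without knockout replicate 1 (adjusted p 0.0526) or parental replicate 3 (0.0599). Its relative Lypla1 was at 0.17 against the control (adjusted p 0.0895) and at -0.21 against the parental line (adjusted p 0.05005), the latter at the threshold and called in 5 of 8 other settings (adjusted p 0.00467 to 0.0497), and the control clone was below the parental line by -0.38 (adjusted p 0.00639). Without control replicate 3 it was called in both knockout comparisons (adjusted p 0.0451 and 0.0235), and without control replicate 2 against the parental line (0.0139). Ppt1, the lysosomal thioesterase lost in an infantile form of neuronal ceroid lipofuscinosis, was set apart in the control clone. Levels of 34.8, 35.6 and 34.5 CPM in the knockout stood beside 50.2, 45.1 and 40.8 CPM in the control and of 31.6, 34.7 and 37.2 CPM in the parental libraries. Knockout and parental libraries overlapped, and the control was above both. The knockout was lower than the control by -0.38 (SE 0.10, adjusted p 0.0118), lost without knockout replicate 1 (0.0512). The control was above the parental line by 0.40 (SE 0.10, adjusted p 0.0191), lost without control replicate 1 (0.0605) or parental replicate 1 or 2 (0.0986, 0.0774) and in a fit of those groups only (0.0694). Exons of Ppt1 overlap those of Cap1 (45436 counts in all), on the opposite strand, over 129 bases, where reads cannot be told apart either. Ppt2, for which 32.3% of 50-base stretches are shared with the readthrough gene Gm20460, was called in no comparison.

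The control clone was set apart from both other groups by 4 members: Zdhhc18, Porcn and Ppt1 were higher and Zdhhc23, with the limit of its few counts, was lower. Over all tested genes 7.01% were higher and 6.41% lower in that way. Leaving out control replicate 1 or parental replicate 1 or 2 changed the 4 members to 2, and leaving out control replicate 2 changed them to 7. The accessory proteins did not pass the test in any comparison. Golga7 ranged from 105 to 125 CPM over all 9 libraries. Selenok, a selenoprotein of the endoplasmic reticulum, varied most within the control clone, at 28.4, 21.7 and 49.2 CPM, beside 27.4 to 33.2 CPM in the other groups. Several further calls appeared once a control library was left out or under another setting. Without control replicate 2, Zdhhc1 was called against the control (-0.69, adjusted p 0.0329), Zdhhc13 (0.0297) and Ppt2 (0.0349) against the parental line, and Lyplal1 between control and parental line (0.51, adjusted p 0.0294). Without control replicate 3, Zdhhc13 (0.0181), Zdhhc21 (0.30, adjusted p 0.0119) and Ppt2 (0.0271) were called against the parental line, and Zdhhc5 (0.0313), Zdhhc7 (0.0375) and Abhd17b (0.0492) between control and parental line. Under other settings, Zdhhc1 was called against the control with a replicate block (0.0439). Ppt2 (0.0172) and Zdhhc21 (0.00422) were called against the parental line in a fit of those groups only, and Ppt2 also with DESeq2 (0.0461). Abhd17b was called between control and parental line in 4 of 8 other settings (0.022 to 0.049).

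The members were then set beside the genes around them, the 5 tested genes on each side. Zdhhc23 and Abhd10 lie on chromosome 16, where the median log2 fold change of 402 tested genes other than the member was -0.35 against the control and -0.29 against the parental line. The neighbours of Zdhhc23 had a median of -0.16 and -0.10, far from its own values. Abhd10 was not apart from its neighbours, whose medians were -0.64 and -0.41, with 7 and 5 of 10 called lower. The shares called lower over all tested genes were 24.2% and 18.3%. Zdhhc8, on the same chromosome and called lower against the parental line alone (-0.27), had neighbours at -0.42 and -0.23. Zdhhc3 lies on chromosome 9, where the chromosome's median was -0.53 in both comparisons, and its neighbours had medians of -0.12 and -0.41. For Zdhhc15 the medians of neighbours were 0.22 and 0.25, for Zdhhc20 0.11 and 0.20, for Lyplal1 0.07 and -0.19, and for Porcn -0.16 and -0.33. Zdhhc6 had neighbours at 0.06 and -0.42, Zdhhc2 at 0.04 and -0.10 and Lypla2 at -0.17 and -0.06. Those of Abhd17c were at -0.24 and -0.28, in the direction of its own -0.51 and -0.48. Copy number was not measured.

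**Figure D5:**
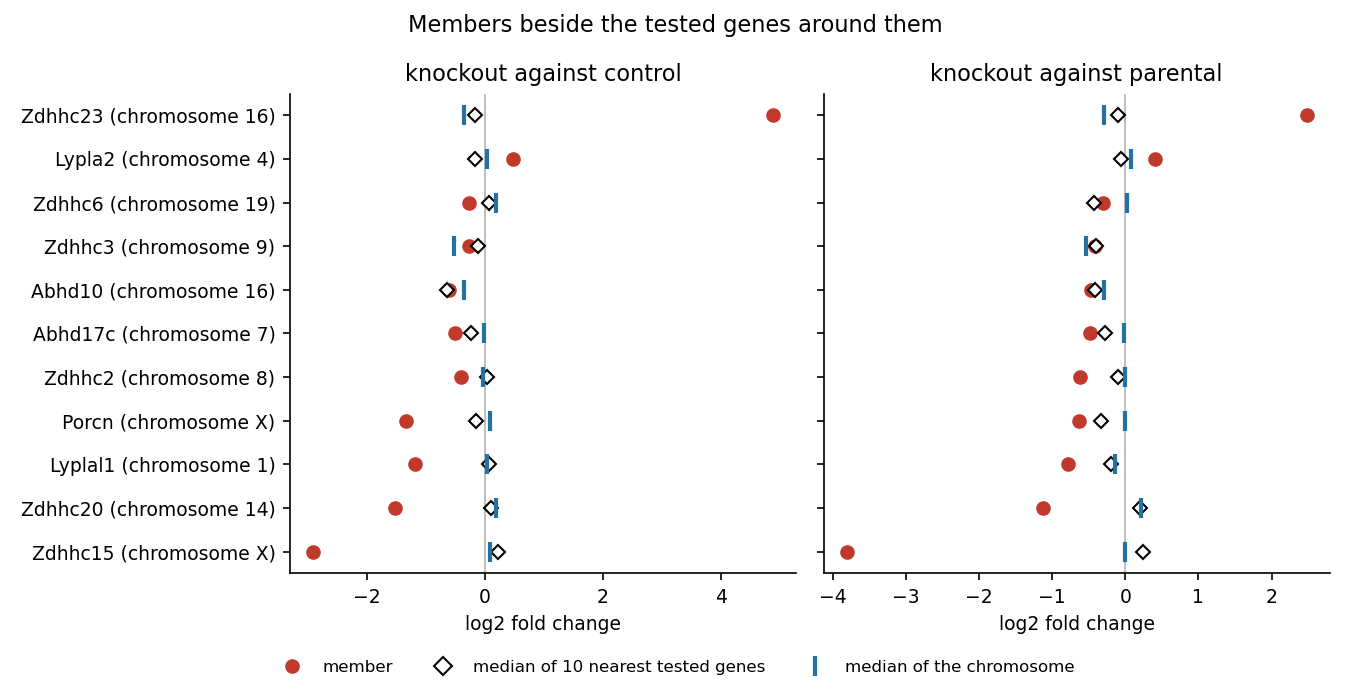
Log2 fold change of the 11 members called apart in the knockout (circles) beside the median of the 10 nearest tested genes (diamonds) and of the chromosome (bars), against the control clone on the left and the parental line on the right. Zdhhc20, Zdhhc15, Zdhhc23, Lyplal1 and Porcn lie away from both medians, and Abhd10 lies on that of its neighbours.

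A pair of further gene lists was set beside the members. Of 19 other genes of protein lipidation (myristoylation, prenylation, deacylation), 16 were tested, with 3 called higher and 2 lower in the knockout against the control, and 2 higher and 1 lower against the parental line. Over all tested genes the shares were 18.7% and 24.2% against the control and 13.1% and 18.3% against the parental line, and 8.19% were called higher and 13.4% lower in both. Called in both were Chml, an escort protein of Rab prenylation (1.16 and 0.52, adjusted p 2.75e-05 and 0.00266), Icmt, which methylates prenylated proteins (0.38 and 0.47, adjusted p 0.0345 and 0.0199), and Abhd6, a monoacylglycerol lipase (-0.91 and -0.66, adjusted p 0.000393 and 0.00345). These genes are named after their values were seen. Without control replicate 3, the calls of this list went from 5 to 8 and from 3 to 5. Of 20 genes that make, bind or use palmitoyl-CoA, the acyl donor, 17 were tested, with 1 higher and 4 lower against the control and 2 higher and 2 lower against the parental line, to be read against the same shares. Acsl5 and the acyl-CoA thioesterase Acot7 (-0.28 and -0.25, adjusted p 0.00496 and 0.0143) were called in both, and were also named after their values were seen. Fasn, which makes palmitate, was 0.06 against the control (adjusted p 0.759) and was higher than in the parental line by 0.63 (adjusted p 0.0119). Without control replicate 2, the calls among these genes went from 5 to 11 against the control and from 4 to 8 against the parental line. They were 9 against the parental line without control replicate 3, and 3 against the control without knockout replicate 1 or 3 or control replicate 1.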

How the data were processed

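Total RNA of 9 untreated cultures was sequenced with the KAPA mRNA HyperPrep kit, per the labels' protocols. The deposited values are estimated counts per gene, all whole numbers, which the authors made with RSEM 1.3.0. STAR 2.5.2, DESeq2 1.10.1 and build GRCm38 are named beside it in the submitters' processing notes. The annotation release and strand setting are not given in the sources used here. Names, exons and coordinates come from GENCODE M21 (GRCm38), which held 54809 of 54838 identifiers. RSEM shares out reads that match several genes, so values of overlapping genes and near copies are uncertain.

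Testing used glmQLFit and glmQLFTest of edgeR 4.0.16 in R 4.3.3 (filterByExpr, minimum count 10, minimum total count 15, TMM) over all 9 libraries with group as the only term, and p-values were adjusted by Benjamini-Hochberg over 13153 genes with a threshold of 0.05. Adjusted p-values are from this test unless the sentence names another setting or a left-out library. SE is the SE of the log2 fold change, and CPM is scaled by TMM. Intervals are exact 95% intervals of counting error. The code was tested on simulated data. Alternatives were other scalings, filters, DESeq2 1.42.0, limma 3.58.1 voom, a replicate block, a fit of the compared groups only, each library left out and a fold threshold. Members and lists were chosen with earlier results of these data known. Full values are given for Zdhhc20, for members that set a group apart from both others in 1 direction and for members called in either knockout comparison with a change of 1 log2 unit or more. From both further lists, genes called in both knockout comparisons at that size would be named, and none reached it. Motif and sequence windows were chosen after values were seen.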

Additional observations from a re-analysis of the deposited data

How the results depend on the processing

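No called member changed sign under any alternative. Of 737 member values under other scalings, filters, tests and fits, 704 kept their side of the threshold, 16 lost a call and 17 gained one. Without a library in turn, 766 of 837 did, 55 lost a call and 16 gained one. The difference of Zdhhc20 from the control ranged from -1.68 to -1.44 and that of Zdhhc15 from -3.11 to -2.65.

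With a change of at least 1 log2 unit also required, the genes called were 1843, 1392 and 851 and the members called 5, 3 and 1 in the comparisons knockout against control, knockout against parental and control against parental. A fit of only the compared groups called 6840 genes and 7 lipidation genes in knockout against parental, 1525 genes, 3 members and 1 lipidation gene in control against parental, 3, 11 and 0 acyl-CoA genes in the 3 comparisons, and 1 member for the control apart from both. Acyl-CoA genes called against the parental line were 8 with no filter and 8 with DESeq2. Members with the parental line apart were 2, Zdhhc15 and Lypla1, under total counts, a mean of at least 5 CPM, DESeq2, limma voom and the fit of compared groups.

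With the replicate number as a block, 16, 11 and 7 members were called in the 3 comparisons and 11 in the knockout apart from both, with 7 and 1 acyl-CoA genes called in knockout and control against parental. The numbers were not taken to pair the libraries: correlations between same-numbered libraries ran from -0.27 to 0.36, 5 of 9 were over 0.1, and in 9 of 18 best-match tests, each of 1 library against another group, the library with its own number matched best.

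Leaving out a library in turn gave 4301 to 7204, 2515 to 5693 and 1472 to 4102 genes and 11 to 17, 7 to 17 and 3 to 9 members in the 3 comparisons. Members apart were 6 to 12 for the knockout, 2 to 7 for the control and 0 to 2 for the parental line. Lipidation genes were 4 to 8, 2 to 5 and 1 to 4, and acyl-CoA genes 3 to 11, 3 to 9 and 0 to 8. The cause of these shifts was not tested. Depth limits Zdhhc23, with 5 counts in the control clone, and the 7 members that were not tested.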
